A study of Mus musculus with 2 samples.

Results

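RNA assembled with several exons outside GENCODE genes was examined in mouse spleen, as 146 multi-exon intergenic transcripts among 16840 assembled transcripts. RefSeq, a second annotation, has a gene at the place of 62 of the 146. The members were all transcripts with the assembler's class code u, which marks a transcript with no gene of the annotation used at its place, and with at least 2 exons. Places within 4 intervals on chromosomes 6, 12, 14 and 17, which hold the antigen receptor and major histocompatibility genes, were left out, and this removed 3 of 149 transcripts. The 146 transcripts formed 132 loci, a locus being all members with the same assembler gene number. The comparison is between 2 libraries. The CIA library came from spleen cells of mice with arthritis induced by type II collagen, a model of inflamed joints, and the other from untreated healthy mice. Titles of both samples give day 40, but for CIA the treatment entry puts sacrifice at day 42. Strain, age and the number of mice per library are not stated in the labels. The tissue label was not checked against marker genes here. With 1 library per group no difference given here has a replicate check, no p-value was computed, and each comparison is between these 2 libraries. In such bulk RNA, fewer cells of a type and less RNA per cell cannot be told apart.

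Long intergenic non-coding RNAs are RNAs transcribed from between protein-coding genes, often spliced, and often confined to a few cell types. Some start head to head with a coding gene from a shared promoter, some lie past the 3′ end of a gene on the same strand, and others stand alone far from any gene. Spleen is the organ where blood-borne antigen meets B and T cells. Because intergenic RNAs are usually weakly expressed, a catalogue built by assembling reads holds many that an annotation lacks.

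The starts of 12 members fell within a RefSeq promoter window, which runs from 250 bases before to 50 bases after a gene's start on GRCm38.p6. Of these, 7 had the strand of the RefSeq gene and 6 the opposite strand, 1 member (MSTRG.41037.1) counting under both. In the same-strand windows the median GC content was 49.7% with 4 CpG, in the opposite-strand windows 57.8% with 15.5 CpG, and over all 32851 RefSeq windows 52.7% with 7 CpG. Shown as examples are 6 of these windows, each of which holds a member's own start. In 3 a member starts within 40 bases of the start of a RefSeq non-coding gene. Gm36417, 29 bases from MSTRG.23161.1, also meets this limit and is not shown. In the other 3 a member starts head to head with a coding gene, given as the 250 bases before that gene's start. Capitals mark matches, on either strand, to the GC box, spelled GGGCGG, the CCAAT box, the TATA box, spelled TATAAA, the ETS site, spelled CCGGAAG, the cAMP response element, spelled TGACGTCA, and the E box, spelled CACGTG. No motif of these 6 contains another.
Gm51802, chr10:60162342-60162641, minus strand: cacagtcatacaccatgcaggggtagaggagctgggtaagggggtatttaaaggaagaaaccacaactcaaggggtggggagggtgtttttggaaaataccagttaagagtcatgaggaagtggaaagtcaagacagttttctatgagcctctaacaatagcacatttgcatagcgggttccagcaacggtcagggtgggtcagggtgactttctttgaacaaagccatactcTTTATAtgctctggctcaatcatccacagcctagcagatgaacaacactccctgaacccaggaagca
Gm38561, chrX:163958491-163958790, plus strand: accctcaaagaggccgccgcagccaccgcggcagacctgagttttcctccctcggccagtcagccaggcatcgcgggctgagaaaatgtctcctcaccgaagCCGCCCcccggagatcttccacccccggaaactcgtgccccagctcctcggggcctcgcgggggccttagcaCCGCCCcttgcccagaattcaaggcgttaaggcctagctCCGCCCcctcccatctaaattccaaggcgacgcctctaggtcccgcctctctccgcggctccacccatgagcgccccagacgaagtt
Gm2848, chr13:52573176-52573475, minus strand: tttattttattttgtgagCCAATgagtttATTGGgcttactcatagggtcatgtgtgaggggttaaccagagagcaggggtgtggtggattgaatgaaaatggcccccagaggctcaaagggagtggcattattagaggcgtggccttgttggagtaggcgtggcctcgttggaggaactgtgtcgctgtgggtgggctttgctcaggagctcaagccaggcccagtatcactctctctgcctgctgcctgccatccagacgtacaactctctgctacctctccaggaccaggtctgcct
Gstp3, chr19:4059448-4059697, minus strand: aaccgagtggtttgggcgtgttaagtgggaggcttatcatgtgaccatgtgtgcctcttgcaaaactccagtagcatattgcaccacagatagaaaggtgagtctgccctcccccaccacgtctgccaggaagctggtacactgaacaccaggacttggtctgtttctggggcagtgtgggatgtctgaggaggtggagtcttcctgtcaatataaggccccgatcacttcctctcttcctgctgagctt
Pcif1, chr2:164879118-164879367, plus strand: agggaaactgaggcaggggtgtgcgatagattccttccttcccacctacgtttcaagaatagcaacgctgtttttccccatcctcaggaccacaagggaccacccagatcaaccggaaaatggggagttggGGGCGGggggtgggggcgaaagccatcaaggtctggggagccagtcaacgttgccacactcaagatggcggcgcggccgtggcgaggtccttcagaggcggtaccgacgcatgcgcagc
Dock2, chr11:34783906-34784155, minus strand: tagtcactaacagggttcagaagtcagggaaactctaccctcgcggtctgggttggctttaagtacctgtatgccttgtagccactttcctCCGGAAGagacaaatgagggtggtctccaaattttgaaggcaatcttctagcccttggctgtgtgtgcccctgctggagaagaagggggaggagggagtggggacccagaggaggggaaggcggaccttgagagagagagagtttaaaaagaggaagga
MSTRG.3665.1 starts 3 bases from the RefSeq start of Gm51802, and its window holds a match to TATAAA, which 13.6% of all windows hold. MSTRG.41037.1 starts 2 bases from the start of Gm38561, in a window with 25 CpG and 3 GC boxes, a motif present in 35.7% of windows. The same start lies head to head with Zrsr2, a gene of the minor spliceosome, and the windows of the pair overlap. MSTRG.10138.2 starts 35 bases from the start of Gm2848, with CCAAT on both strands. A CCAAT match on either strand was found in 37.4% of windows, and the share with both was not counted. RefSeq and GENCODE place some starts differently, and distances here are to the RefSeq start. MSTRG.23029.1 starts 126 bases before Pcif1, the mRNA cap methyltransferase, and MSTRG.5361.1 starts 92 bases before Dock2, a regulator of lymphocyte migration whose window holds an ETS match, as 8.86% of windows do. MSTRG.18892.1 starts 142 bases before Gstp3, a glutathione transferase gene, and the 250 bases shown hold none of the 6 motifs, whereas the full window of 300 bases holds 1 GC box. Across all windows the cAMP response element was matched in 1.79% and the E box in 7.15%. A match is a description of letters, not of a bound site.

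Most members had a few FPKM in both libraries, and they were higher in the CIA library more often than lower. Levels are FPKM, fragments scaled by transcript length and library size, and the ratio is log2((CIA FPKM + 0.1)/(healthy FPKM + 0.1)). The FPKM ran from the floor of 0.0001, which the files list in place of 0, to 28.1 with a median of 2.54 in the CIA library, and from the floor to 21.4 with a median of 2.15 in the healthy library. Only 6 of 146 members reached 10 FPKM in either library, and 111 stayed below 5 FPKM in both. All 146 had at least 0.5 FPKM in either library, the filter used, and the lowest of the larger values was 0.845 FPKM. All assembled transcripts past the filter had medians of 2.29 FPKM in CIA and 1.99 FPKM in health, single-exon intergenic ones 2.05 and 1.78 FPKM, and annotated ones 1.31 and 1.09 FPKM, all below the members' medians. Multi-exon transcripts inside introns had higher medians, 3.44 and 2.86 FPKM. The median log2 ratio was 0.52, against 0.26 over the 16773 assembled transcripts past the filter, 0.31 over 2582 single-exon intergenic transcripts and 0.30 over 3068 annotated transcripts. The middle 50% of members lay between -0.21 and 1.01.

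By the 2-fold rule 37 of 146 members (25.3%) were higher with CIA, where 17.2% of all assembled transcripts and 24.7% of single-exon intergenic ones were. Lower by the same rule were 16 members (10.96%), where 11.1% of all assembled transcripts and 15.1% of single-exon intergenic ones were. Of the annotated transcripts 15.7% were higher and 6.13% lower. The share of lower members is thus at the background and is not a result about them, and the share of higher members is above that of all assembled transcripts but close to that of other intergenic ones. Subtracting the annotated median of 0.30 left 28 higher and 21 lower members, a shift of the split from 69.8% to 57.1% higher. No read counts are held in the files, so the depth behind each value is unknown.

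**Figure D1:**
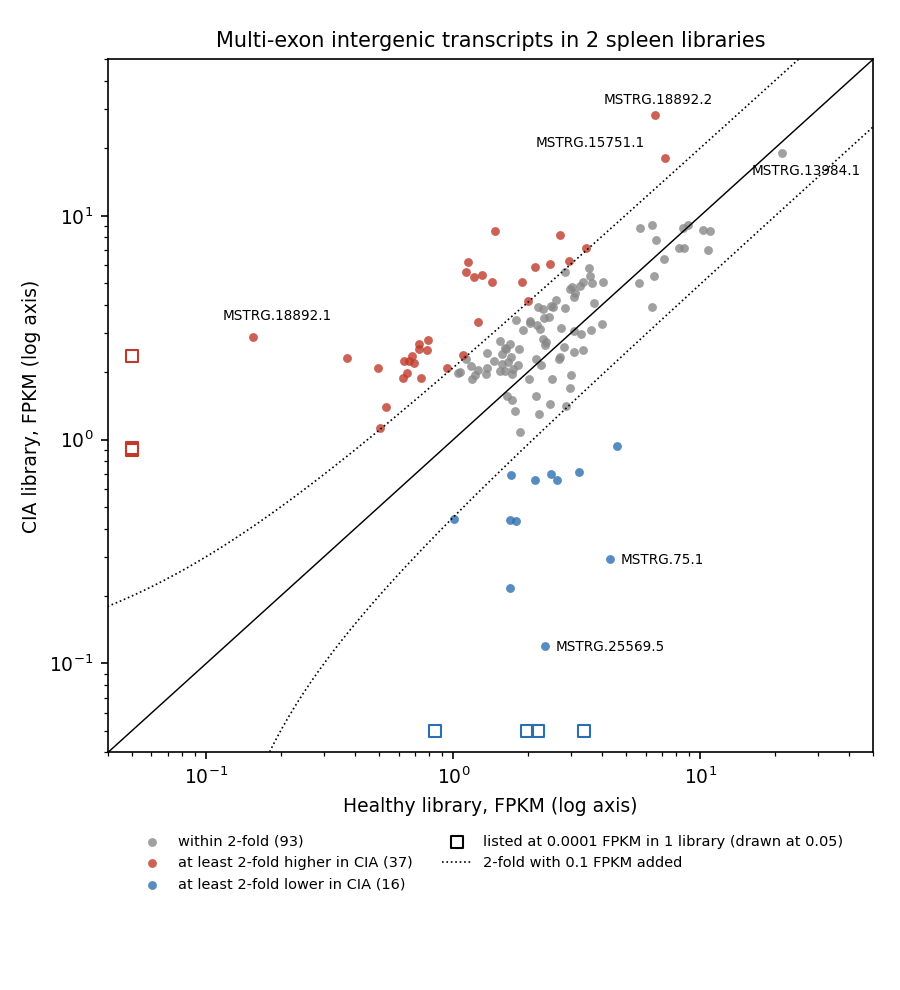
FPKM of each member in the healthy library (x axis) and in the CIA library (y axis), both log axes, with 1 point per transcript, the line of equal values and dotted lines at 2-fold. Most points lie between 1 and 10 FPKM, with 37 red points above and 16 blue points below the dotted lines, and 7 squares at the floor of 1 library.

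Members with a low mean had to differ between the libraries, since few had low values in both. Only 6 members stayed under 1.5 FPKM in both libraries, whereas 24 had a mean under 1.5 FPKM, and 23 of these 24 were at least 2-fold apart, 13 higher and 10 lower. At a mean of 1.5 to 2.5 FPKM, 9 of 53 members were higher and 5 lower. At a mean of 2.5 to 5 FPKM, 10 of 49 members were higher and 1 was lower, and at 5 FPKM or more 5 of 20 were higher and none was lower. The median log2 ratio of those 20 was -0.07, with 10 of them above 0.

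The typical member was short, with 2 exons. The exonic length ran from 203 to 14099 bases with a median of 656.5, and 131 of 146 members had 2 exons, 11 had 3, 2 had 4, 1 had 5 and 1 had 6. The bases between the exons ran from 26 to 198648 with a median of 2358. The 2-exon members had a median log2 ratio of 0.56, with 35 higher and 12 lower. The 15 members with 3 or more exons had a median of -0.21, with 2 higher and 4 lower, and these 15 came from 14 loci. Among them, the 4-exon MSTRG.25881.1 (chromosome 4, 42273232 to 42275236), 16.8 kb past the lymphoid chemokine gene Ccl21b on the same strand, had 7.79 against 6.59 FPKM for CIA against healthy. By length, members under 300 bases differed most often in either direction, with 9 of 22 higher and 6 lower. Of all assembled transcripts 17.2% were higher and 11.1% lower. Their shares at like length, exon number or gap were not counted, so these counts are not results particular to the members. From 1000 to 2500 bases, 7 of 28 were higher and none was lower, and the median was 0.59. Of the 13 members with over 20000 bases between their exons, 3 were higher and 2 lower, with a median of -0.06.

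**Figure D2:**
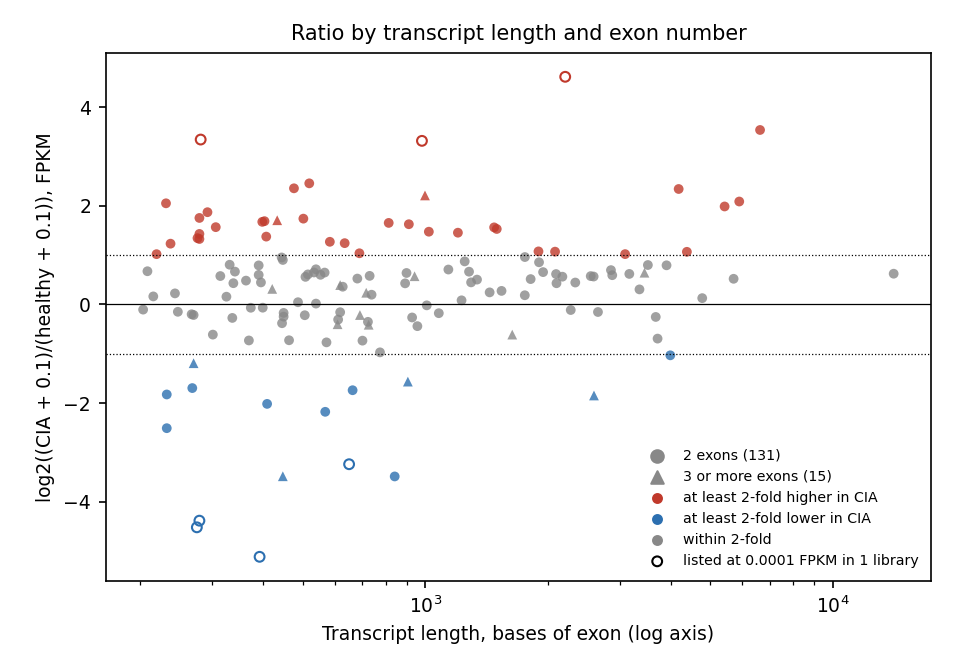
Log2 ratio of each member (y axis) against its exonic length in bases (log x axis), circles for 2 exons and triangles for 3 or more. Ratios below the lower dotted line come mostly from members shorter than 1000 bases, and open symbols are the 7 members at the floor in 1 library.

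Among members above the floor in both libraries, MSTRG.18892.1 had the highest ratio. This transcript of 6627 bases (chromosome 19, 4059589 to 4066253, plus strand) had 2.86 FPKM with CIA and 0.155 FPKM in health, a log2 ratio of 3.54. Values below are given in that order, CIA against healthy. Its isoform MSTRG.18892.2 was the most abundant member of the CIA library, at 28.1 against 6.53 FPKM. MSTRG.12823.1 (chromosome 14, 110356702 to 110359489), 389.1 kb from the nearest coding gene, Slitrk6, had 8.55 against 1.48 FPKM, a log2 ratio of 2.46. The CIA value of each of these exceeded the healthy value more than 4-fold, with 1 library each.

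Next came MSTRG.19718.1 (chromosome 19, 40830557 to 40831172) at 2.31 against 0.372 FPKM. It lies 107 bases before the GENCODE gene Ccnj, the cyclin J gene, and overlaps the RefSeq span of that gene. MSTRG.18043.1 (chromosome 18, 35640255 to 35646432) had 5.46 against 1.30 FPKM, a log2 ratio of 1.99. It ends 835 bases from the 3′ end of Mzb1, whose product helps marginal zone B cells and plasma cells assemble immunoglobulin. MSTRG.39177.1 (chromosome 9, 88976605 to 88979318), 14.2 kb past the anti-apoptotic gene Bcl2a1a on the same strand, had 5.06 against 1.43 FPKM, a log2 ratio of 1.75. MSTRG.30461.2, MSTRG.12494.1, MSTRG.29292.1 and MSTRG.40544.1, which are described with their loci and clusters, complete the 10 highest, with log2 ratios between 1.87 for MSTRG.40544.1 and 2.34 for MSTRG.30461.2.

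At the low end, MSTRG.75.1 (chromosome 1, 10315117 to 10322023) had 0.294 against 4.31 FPKM, a log2 ratio of -3.49. It lies 2.70 kb from the GENCODE gene Cpa6, a carboxypeptidase gene, and overlaps the RefSeq span of that gene. MSTRG.19336.1 (chromosome 19, 21370786 to 21384033), 7.27 kb past the guanine deaminase gene Gda on the same strand, stood at 0.939 against 4.60 FPKM. MSTRG.31844.1 (chromosome 6, 88152435 to 88154947), 38.9 kb from Gata2, a transcription factor gene of blood stem cells and mast cells, had 0.216 against 1.701 FPKM, a log2 ratio of -2.51. In all 3 the healthy value was the larger by more than 4-fold, and all 3 stood below 1 FPKM in the CIA library.

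MSTRG.18675.1 (chromosome 18, 75364030 to 75364791), 2.74 kb head to head with Smad7, an inhibitor of TGF-beta signalling, stood at 0.436 against 1.69 FPKM. MSTRG.41050.1 and MSTRG.34715.1 had log2 ratios of -1.82 and -1.695. The other 4 of the 10 lowest, MSTRG.25569.4, MSTRG.25569.5, MSTRG.30461.3 and MSTRG.12494.2, belong to loci with several members.

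In addition, 7 members were listed at the floor in 1 library, for which no ratio is given. With the healthy value at the floor, MSTRG.14686.2 had 2.36 FPKM, MSTRG.3665.1 0.917 FPKM and MSTRG.8805.3 0.898 FPKM in CIA. With the CIA value at the floor, MSTRG.4490.1 had 3.37 FPKM, MSTRG.32332.1 2.20 FPKM, MSTRG.40557.1 1.99 FPKM and MSTRG.40538.1 0.845 FPKM in health. A floor value can be a failed estimate, and without these 7 members 34 were higher and 12 lower.

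The most abundant members differed less. MSTRG.13984.1 (chromosome 15, 89768033 to 89768879), which overlaps the RefSeq lncRNA gene Gm19378, had the highest mean, with 19.01 against 21.4 FPKM. MSTRG.15751.1 (chromosome 17, 8260071 to 8263473) had 18.2 against 7.17 FPKM, a log2 ratio of 1.33. MSTRG.9665.1 on chromosome 13, 2 bases from the 3′ end of the histone gene Hist1h4m, stood at 8.58 against 10.98 FPKM. MSTRG.41138.1 on chromosome Y stood at 9.06 against 8.95 FPKM, and MSTRG.33385.1 on chromosome 7, 6.11 kb before Eid2, at 7.02 against 10.8 FPKM. Of the 10 members of highest mean, 2 (MSTRG.18892.2 and MSTRG.15751.1) were 2-fold higher and the other 8 were within 2-fold.

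Where a locus held several members, its transcripts often differed in ratio while their sum did not pass 2-fold. Of the 132 loci, 124 had 1 member and 8 had 2 to 5, together 22 members. Of these 22, 10 were at least 2-fold apart, and in none of the 10 was the sum of its locus 2-fold apart in the same direction. The like count over all assembled loci with several transcripts was not made, so this is not a result particular to the members. Overlapping isoforms divide reads among them, so an isoform value is less certain than a sum.

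At MSTRG.18892, next to Gstp3, the 4 isoforms end at the same base. MSTRG.18892.1 and MSTRG.18892.2, which start farthest upstream, had the larger values in CIA, whereas MSTRG.18892.3 stood at 3.90 against 6.37 FPKM and MSTRG.18892.4 at 7.197 against 8.59 FPKM. Their sum was 42.1 against 21.6 FPKM, a log2 ratio of 0.95. At MSTRG.30461 (chromosome 5, 146647768 to 146655650), 62.5 kb or more from Gpr12, MSTRG.30461.2 stood at 6.23 against 1.15 FPKM, MSTRG.30461.1 at 5.63 against 2.84 FPKM and the 3-exon MSTRG.30461.3 at 0.661 against 2.64 FPKM. The sum was 12.5 against 6.63 FPKM, a log2 ratio of 0.91.

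At MSTRG.12494 (chromosome 14, 69813411 to 69827951), near the gene Rhobtb2, the 6-exon MSTRG.12494.1 stood at 5.59 against 1.13 FPKM and the 5-exon MSTRG.12494.2 at 0.657 against 2.14 FPKM. Both isoforms overlap the RefSeq span of Rhobtb2. Their sum of 6.24 against 3.26 FPKM gave a log2 ratio of 0.91. At MSTRG.25569, 525 bases on chromosome 4 within the RefSeq lncRNA gene Gm42252, 5 isoforms were listed. From MSTRG.25569.1 to MSTRG.25569.5 the bases between exons summed to 76, 38, 152, 114 and 76. Whether such short gaps are spliced introns was not tested. The abundant pair stood at 8.64 against 10.3 FPKM (MSTRG.25569.1) and 8.80 against 8.52 FPKM (MSTRG.25569.2), and MSTRG.25569.4 and MSTRG.25569.5, at 0.719 and 0.120 FPKM in the CIA library, stood at 3.21 and 2.36 FPKM in the healthy one. The sum was 19.8 against 26.0 FPKM, a log2 ratio of -0.39. At MSTRG.10138 near Syk, a kinase of B cell receptor signalling, both isoforms stood near 3.5 FPKM in the CIA library and the sum was 7.05 against 4.76 FPKM. At MSTRG.15917 on chromosome 17 the sum was 5.38 against 3.05 FPKM. In these 2 loci no single isoform was 2-fold apart either.

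Counted as sums, 32 of 132 loci (24.2%) passed 2-fold with the larger value in CIA and 11 (8.33%) with the smaller, where 16.9% and 10.9% of all assembled loci were. The median log2 ratio of the loci was 0.56. MSTRG.14686 also held an assembled transcript that is no member, and with it the locus summed to 5.80 against 1.06 FPKM, a log2 ratio of 2.34, although its member was at the floor in the healthy library. At MSTRG.13547 such a transcript took the log2 ratio from 1.07 to 0.43, below 2-fold. Summed over every assembled transcript, as the background of all loci is, 31 loci (23.5%) were higher and 11 (8.33%) lower.

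**Figure D3:**
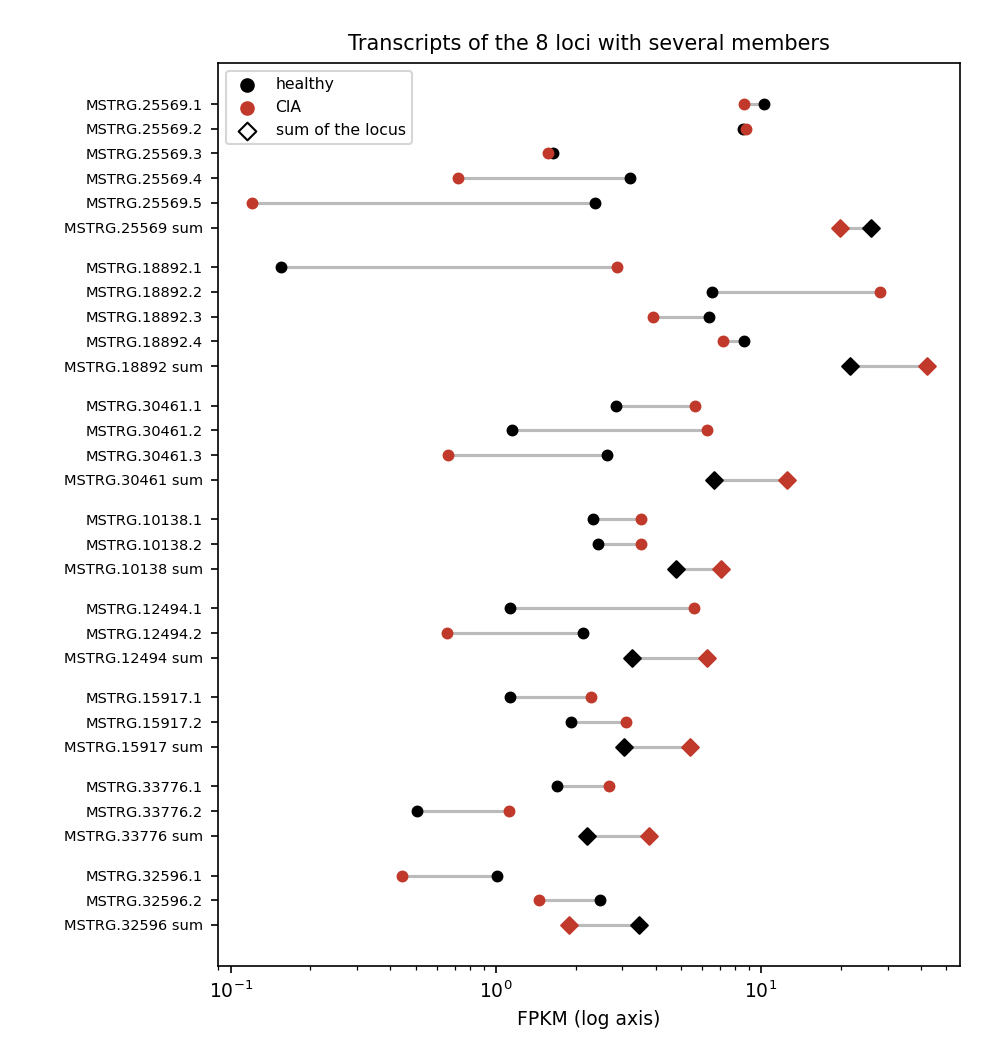
FPKM (log x axis) in the healthy (black) and CIA (red) library for the 22 members of the 8 loci with several members, circles for transcripts and diamonds for the locus sums. At MSTRG.30461 and MSTRG.12494 isoforms lie on opposite sides, and the distance between the diamonds is shorter than that between the circles of the most different isoform.

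By place, 44 of the 146 members lay within 5 kb of a GENCODE protein-coding gene, 57 between 5 and 50 kb and 45 beyond 50 kb, and no member overlapped a GENCODE gene. The median distance was 17.6 kb, and direction was read from the nearest coding gene alone. Of all assembled transcripts 17.2% were higher and 11.1% lower. Members past the end of a gene on its strand, within 5 kb, had a median log2 ratio of 0.56 with 4 of 10 higher and none lower. These 10 came from 9 loci. Those with 3′ ends facing had 0.57 with 1 of 16 higher and 1 lower, and those 5 to 50 kb away 0.57 with 14 of 57 higher and 7 lower. Beyond 50 kb the median was 0.48, with 14 of 45 higher and 7 lower. Head-to-head members within 5 kb had the lowest median, -0.16, with 3 of 15 higher and 1 lower, but 4 of the 15 are isoforms of MSTRG.18892. The 9 of them within 1 kb had a median of 0.39, with 6 above 0, 3 higher and none lower. The difference between these classes was not tested, as members of a class come from the same 2 libraries.

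**Figure D4:**
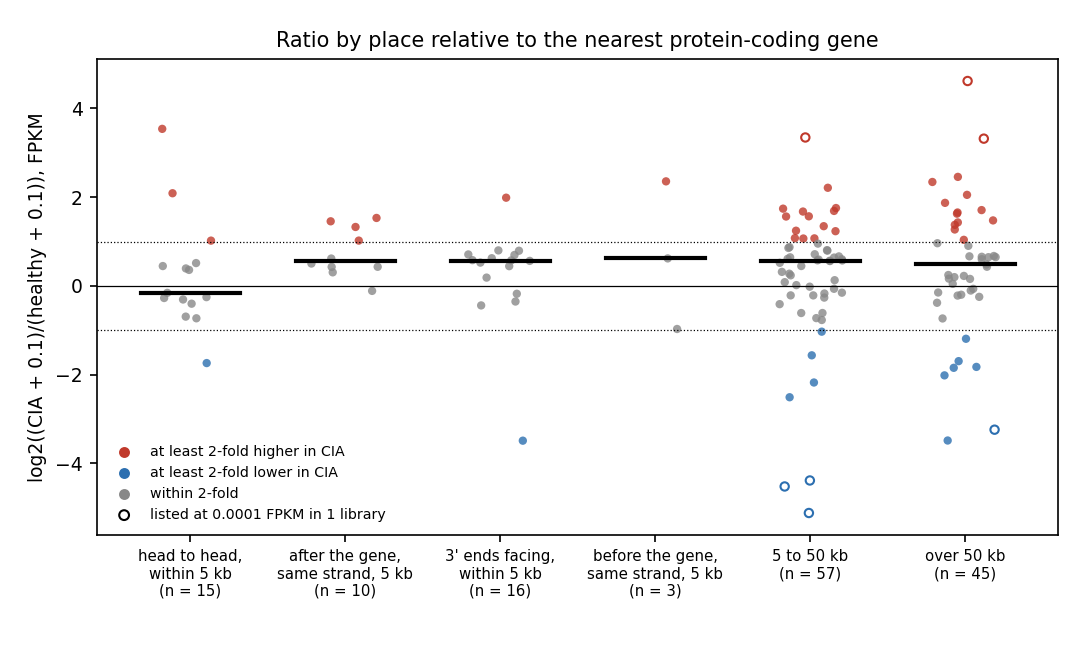
Log2 ratio of the members (y axis) in 6 classes of distance and direction from the nearest protein-coding gene, with 1 point per transcript and a bar at the median. The bar of the head-to-head class lies at -0.16 and the others between 0.48 and 0.62, and points of all classes overlap.

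By the nearest coding gene, 9 members started head to head within 1 kb. Their values can be set beside those of assembled transcripts inside the partner's introns. Farther coding genes were not searched for this count. MSTRG.2863.1, for example, starts 129 bases from the RefSeq start of Cd46 on the opposite strand but is not among the 9. MSTRG.6885.1 (chromosome 11, 98546043 to 98548828) starts 12 bases from Ikzf3, which encodes Aiolos, a transcription factor of B and T cells. It had 4.17 against 2.003 FPKM, a log2 ratio of 1.02, and 3 intronic transcripts of Ikzf3 summed to 15.1 against 5.46 FPKM. Both the member and its partner's introns were thus higher in the CIA library. MSTRG.23029.1 beside Pcif1 stood at 9.13 against 6.36 FPKM, with 9.13 against 5.28 FPKM in the introns. MSTRG.5361.1 beside Dock2 stood at 2.21 against 1.66 FPKM, with 12.1 against 7.27 FPKM in the introns. MSTRG.18.1, 6 bases from the autophagy gene Rb1cc1, stood at 2.02 against 1.55 FPKM, with 12.4 against 10.4 FPKM in the introns.

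Only 2 members stood on the other side of 0 from their partners. MSTRG.41037.1 beside Zrsr2 stood at 3.30 against 4.01 FPKM with 3.67 against 2.38 FPKM in the introns. MSTRG.36570.1 beside the Mediator subunit gene Med26 stood at 2.51 against 3.34 FPKM with 14.8 against 11.3 FPKM in the introns. Over the 6 pairs with intronic transcripts, all 6 partners and 4 members had a ratio above 0. Of all assembled transcripts past the filter 63.3% had a ratio above 0, so a shared direction in so few pairs is not a result about them. MSTRG.28202.1 beside Selenoi, an enzyme of phospholipid synthesis, stood at 5.03 against 5.62 FPKM and has no such partner value, and the other 2 are MSTRG.18892 isoforms.

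RefSeq covers places that GENCODE leaves empty, and 62 of the 146 members overlapped the span of a RefSeq gene of the same build. Of these, 32 overlapped a lncRNA gene, 24 a protein-coding gene and 6 other types only. Strand was not compared, as the RefSeq gene table used gives none. Members with and without such an overlap had similar ratios, with medians of 0.54 and 0.47, 16 of 62 against 21 of 84 higher and 7 against 9 lower. Starts agreed within 100 bases with a RefSeq start on the same strand in 8 members, among them MSTRG.29291.1, 1 base from the start of the zinc finger gene Zfp33b, at 2.13 against 1.18 FPKM. MSTRG.23161.1 at Gm36417 stood at 2.004 against 1.06 FPKM, MSTRG.25729.1 at Gm52717 at 3.95 against 2.48 FPKM and MSTRG.10138.2 at Gm2848 at 3.53 against 2.43 FPKM. All but MSTRG.41037.1 and MSTRG.31844.1 of the 8 had the larger value in the CIA library, where 63.3% of all assembled transcripts did. MSTRG.21826.1, within the RefSeq lncRNA gene Lincred1 and 46.2 kb from Lmo2, a blood transcription cofactor gene, stood at 1.94 against 3.01 FPKM.

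Only 2 chromosome clusters held 3 or more loci with gaps under 100 kb. The larger, on chromosome 5 from 104564917 to 104807978, held 7 loci in 243.1 kb between BC005561 and Zfp951, with 4 on the plus and 3 on the minus strand. MSTRG.29289.1 stood at 8.20 against 2.70 FPKM and MSTRG.29292.1 at 5.35 against 1.21 FPKM, log2 ratios of 1.57 and 2.05. MSTRG.29293.1, MSTRG.29294.1, MSTRG.29287.1 and MSTRG.29291.1 had log2 ratios between 0.58 for MSTRG.29287.1 and 0.81 for MSTRG.29291.1. MSTRG.29290.1, which spans 198918 bases with 270 bases of exon, stood at 2.29 against 2.67 FPKM. Hence 6 of 7 were above 0, where 63.3% of all assembled transcripts were. The cluster summed to 31.6 against 16.6 FPKM, a log2 ratio of 0.92. Several of these members interleave and share the interval of the Zfp33b and Zfp951 zinc finger genes, so they are not independent of each other.

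The cluster on chromosome X, from 94827867 to 94886649, held 4 loci in 58.8 kb, each 97.7 kb or more from any coding gene. MSTRG.40543.1 stood at 7.198 against 3.45 FPKM, MSTRG.40544.1 at 2.08 against 0.496 FPKM and MSTRG.40534.1 at 2.64 against 2.36 FPKM, and MSTRG.40538.1 was at the floor in the CIA library. The sums were 11.9 against 7.15 FPKM. The same interval held 8 single-exon intergenic transcripts, and 7 of these 8 passed 2-fold upward in CIA, none downward, at a median log2 ratio of 1.35. Of all single-exon intergenic transcripts 24.7% were higher and 15.1% lower. Transcripts of 1 short interval may not be independent of each other. By chromosome, chromosome 4 held most members, 17 (11.6%, against 8.05% of single-exon intergenic transcripts), but 5 of them are isoforms of MSTRG.25569 and the 17 form 13 loci, against 12 on chromosome 1. In turn, chromosome 19 held 11 (7.53% against 2.98%), 4 of them MSTRG.18892 isoforms.

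**Figure D5:**
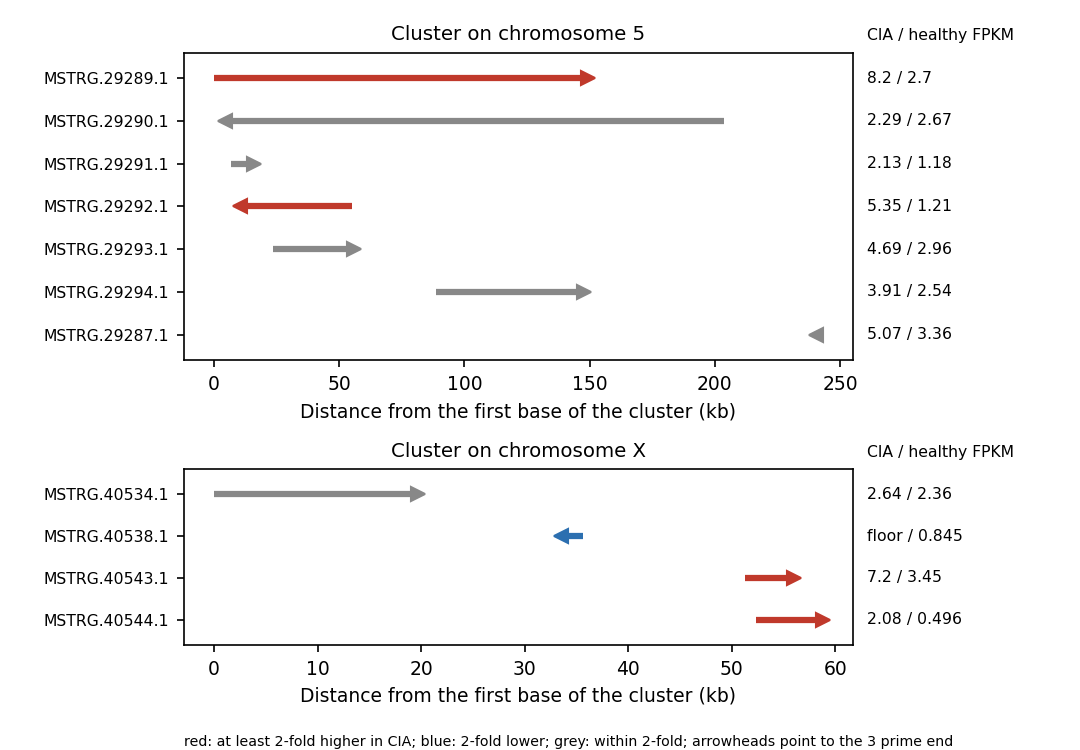
Span of each member of the 2 clusters in kb from the first base of the cluster, arrowheads at the 3′ end, with CIA and healthy FPKM at the right. In the chromosome 5 cluster MSTRG.29290.1 and MSTRG.29289.1 span most of the smaller members, and 6 of 7 have the larger value in the CIA library.

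Few members lay near genes of the immune lists. Of 13 lists of protein-coding genes, for T, B, regulatory T, Th17, NK, myeloid, erythroid, platelet and stromal cells, the P2X7R-NLRP3 inflammasome, the interferon response, the cell cycle and cytokines, only 2 had a member within 50 kb, with 4 members in all. Near B cell genes, 1 of 3 passed 2-fold, with the larger value in CIA, and the median log2 ratio was 0.62. These were MSTRG.6885.1 at Ikzf3, MSTRG.38559.1 at Pou2af1 and MSTRG.2863.1 at 39.5 kb from Cr2, the complement receptor gene of B cells. The coding gene nearest to MSTRG.2863.1 is Cr1l, 40 bases away with 3′ ends facing, and its start lies in the opposite-strand RefSeq window of Cd46. MSTRG.38559.1 was the longest member, 14099 bases (chromosome 9, 51241052 to 51256171), ends 972 bases from the 3′ end of Pou2af1, a B cell coactivator gene, and stood at 8.84 against 5.70 FPKM. MSTRG.2863.1 stood at 5.01 against 3.65 FPKM. Near Th17 genes the 1 member was MSTRG.15751.1, 2.93 kb past Ccr6, a chemokine receptor gene of Th17 and B cells, on the same strand, and 1 transcript in a Ccr6 intron stood at 4.14 against 2.30 FPKM. All 4 had the larger value in the CIA library, as 98 of 146 members (67.1%) and 63.3% of all assembled transcripts did. The other 11 lists, those of T cells, regulatory T cells and the inflammasome included, had none.

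The authors' deposited table has 17 members marked as significant, 14 higher and 3 lower, where 5.4% and 0.909% of all assembled transcripts carried that mark. The mark did not require a p below 0.05. MSTRG.40543.1 carries it with p 0.171 and q 0.907 in the authors' deposited table. The deposited ratio of all 17 was beyond 2-fold. For 8 members the p was below 0.05 in the authors' deposited table, against 1.32% higher and 0.534% lower of all assembled transcripts. Only 2 had a q below 0.05 in the authors' deposited table, MSTRG.18892.1 (p 6.06e-08, q 1.41e-05) and MSTRG.30461.2 (p 0.000828, q 0.0279). Over all assembled transcripts, 73 of 16840 had such a q in the authors' deposited table. The authors' deposited table lists a p of 1 for 56 of 146 members and for 6972 of all 16840 assembled transcripts. The median length of those 56 members was 396.5 bases, against 1109 for the other 90. MSTRG.12823.1, MSTRG.75.1 and all 7 members at the floor are among those 56, so members of large ratio can carry a p of 1 there.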

How the data were processed

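RNA of spleen cells was sequenced from 1 CIA library and 1 healthy library. Per the labels' protocols, TRIzol was used for total RNA and Ribo-Zero to deplete ribosomal RNA, and StringTie, which assembles transcripts, is listed by the submitters' processing notes. For the aligner, the strandedness and the statistical test, the entry is "not given in the sources used here". FPKM values, with 0.0001 in place of 0, were deposited by the authors for each transcript. The ratio (fold) deposited by the authors equals CIA FPKM divided by healthy FPKM, with its log2 deposited by the authors beside it. Each p-value and q-value was deposited by the authors and is quoted without recomputation. Damaged CIA cells of the annotated transcripts were restored from the deposited ratio. All 15172 annotated transcripts had GENCODE M21 coordinates, so GRCm38 is given as the build.

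Computed here were log2 ratios with a pseudocount of 0.1 FPKM, which understates ratios of low transcripts, a filter of 0.5 FPKM in either library, a 2-fold size rule and locus sums with the floor as 0. Distances are to GENCODE M21 gene spans. Promoter sequences and gene spans are those of RefSeq on GRCm38.p6. The named transcripts were the 10 highest and 10 lowest ratios above the floor among those reaching 1 FPKM, the 10 most abundant, up to 5 at the floor each way, the 3 longest, the 3 with most exons, and loci and clusters by similar rules. The members by position, at RefSeq starts and in the chromosome counts were chosen after their values were seen. The members and lists were chosen with earlier results of these data known. The 2-fold rule and its script were tested on simulated data with planted 4-fold changes and a small noise set in advance. This checks the calculation only, as the noise of these 2 libraries is unknown. Alternatives were other pseudocounts, filters, centring, exon and distance limits. Promoters on chromosome 18 were not searched, where 4 members lie. Depth per library is unknown. Python 3.11.15, numpy 2.4.6, pandas 2.3.3 and matplotlib 3.10.9 were used.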

Additional observations from a re-analysis of the deposited data

How the results depend on the processing

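No paired analysis was possible because either arm holds only 1 sample. The median log2 ratio of the members was 0.22 after centring on the annotated and 0.26 after centring on the assembled median, and it turned to -0.21 over the 15 members with 3 or more exons. Higher and lower transcripts numbered 2 and 4 with 3 or more exons, 10 and 9 under the 4-fold rule, 19 and 10 with a pseudocount of 1 FPKM, 25 and 9 farther than 10 kb from coding genes, 28 and 21 centred on the annotated median, 21 and 9 without RefSeq overlap and 22 and 7 at 500 or more bases. Higher and lower loci numbered 1 and 3, 6 and 7, 15 and 7, 24 and 6, 24 and 16, 18 and 7, and 17 and 5 under these settings in the same order. Loci centred on the assembled median numbered 25 higher and 14 lower, and those above the floor 29 and 7. Of these, the exon, distance, RefSeq, floor and length settings count fewer transcripts by construction. The settings on RefSeq overlap, length, floor, intron bases and full locus sums were chosen after seeing the data. As locus sums, MSTRG.30461.3 turned to 0.91 and MSTRG.12494.2 also to 0.91. Low levels limit all ratios, as 111 members stayed below 5 FPKM.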

Other observations

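The gaps between exons of a few members were very short. In 8 members of 7 loci the bases between exons summed to fewer than 50. Whether these gaps are spliced introns was not tested. All 8 had a ratio above 0, where 63.3% of all assembled transcripts did. The median log2 ratio of the 8 was 0.62, and 2 were at least 2-fold higher. Both are isoforms of MSTRG.18892, whose sum, at a log2 ratio of 0.95, did not pass 2-fold. The 8 include MSTRG.18892.1, MSTRG.18892.2 and MSTRG.25569.2, with 38 bases each, and MSTRG.36889.1 with 26 bases, which stood at 3.84 against 2.31 FPKM. Among multi-exon transcripts inside introns of other genes, 218 of 907 (24.04%) had fewer than 50 such bases, against 5.48% of the members. Without these 8 members 35 were higher and 16 lower.

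At the other extreme, 13 members spanned more than 20000 bases with a median of 279 bases of exon. MSTRG.1867.1 on chromosome 1 spans 109136 bases with 203 bases of exon, the shortest member, and stood at 2.60 against 2.80 FPKM. MSTRG.40012.1 on chromosome X spans 44884 bases with 279 bases of exon and stood at 5.92 against 2.13 FPKM, with log2 ratio 1.43. Plus-strand and minus-strand members were equally many, 73 each.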
